A study of Drosophila melanogaster with 64 samples.

Results

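Mitochondrial ribosomal protein genes were taken as all genes of the deposited count table whose symbol begins with mRpL (large subunit) or mRpS (small subunit). There were 73 such genes among 17606, of which 47 were mRpL and 26 were mRpS genes. The subunit of a gene is here that of its symbol and was not checked against a structure of the ribosome. Mitochondria keep their own ribosome, which is descended from that of bacteria and translates the few messages encoded by mitochondrial DNA, most of them for membrane subunits of the respiratory chain and the ATP synthase. Its RNAs come from the mitochondrial genome, but all of its proteins are encoded in the nucleus, made in the cytoplasm and imported. In the fly testis, mitochondria are rebuilt as germ cells differentiate: in round spermatids they fuse into the nebenkern, which later unfolds and elongates along the growing sperm tail.

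The 64 libraries came from testes of Drosophila melanogaster, with 4 replicate pools for each of 8 lines at 2 stages, and held poly(A)-selected RNA. The 5 male-sterile lines BM1, BM5, BM6, BM24 and BM46 and the 2 fertile lines BM4 and BM21 each carried a reciprocal translocation between the X and the second chromosome, T(1;2), and the irradiated parental stock without a translocation was the control. Males of all 8 lines, the parental stock included, carried the X-linked duplication Dp(1;1)scV1 with the markers su(wa), wa, cv, v and f and marked alleles of yellow and scute. The balancer FM7i, P{ActGFP}JMR3 maintained the 5 sterile lines, and compound-X females (C(1)M4, y) maintained BM4, BM21 and the parental stock, so sterility and the way a stock was kept cannot be told apart. Each translocation is 1 line. Adult males were 1 to 5 days old, with 20 testes in a pool, and larvae were late in the third instar (L3), with 15 testes in a pool. Adult testes had been separated from the seminal vesicle, and larval testes had been freed of fat body with Papain and Collagenase. The stages occupied different wells of the plate on which libraries were made, so stage and plate position cannot be told apart either.

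Total counts per library ran from 20387 to 24650332 in adult testes and from 8961413 to 21275143 in L3 testes, and 3 adult libraries of sterile lines (BM6 replicate 3 and BM24 replicates 2 and 3) had fewer than 1000000. All 7 germline markers (vas, bam, aly, can, Mst87F, dj, Mst98Ca) and all 3 somatic testis markers (tj, eya, zfh1) were detected in both stages. Levels below are in normalized CPM (counts scaled to a library of 1000000), where the library total is first multiplied by its TMM factor. Genes are tested with edgeR's quasi-likelihood F test, and a gene is said to have risen or fallen where its Benjamini-Hochberg adjusted p over all genes tested was under 0.05. In bulk tissue, fewer cells of a type and less RNA per cell cannot be told apart. The labels do not say whether the pools of a line came from separate crosses, so these p-values measure the spread between pools, which may be technical.

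The genes were spread over the genome, with 12 on arm 2L, 12 on 2R, 17 on 3L, 21 on 3R and 11 on the X. By name, 42 shared a number with a bacterial ribosomal protein (L1 to L36 or S1 to S21), and 31 carried higher numbers, which are given to proteins that the bacterial ribosome lacks. They were short: the median summed exon length was 783 bases (range 327 to 2078), against 1734 bases over all 13920 protein-coding genes. Exons of 42 of the 73 (57.5%) overlapped a gene on the opposite strand, against 27.4% of all protein-coding genes, and in 39 of the 42 the overlap lay at the 3′ end. The sources used here do not give the strand setting of the counting, so reads in such overlaps are uncertain. mRpL53 lay wholly within CG33155 on the same strand and was listed at 0 counts in all 64 libraries, which leaves 72 genes that could be tested. mRpL13 shared 35.2% of its exon bases with CG10602 on the same strand.

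Levels per kilobase of exon (1000 bases) spanned 12.9-fold between members in adult and 13.2-fold in L3 parental testes. In the parental stock the 72 genes had a median of 20.8 CPM per kb in adult testes (range 6.75 to 86.9) and 36.1 CPM per kb in L3 testes (range 9.49 to 125.5). In adult testes mRpS21 was highest, at 86.9 ± 11.9 CPM per kb (SD, n = 4), followed by mRpL12, part of the stalk that recruits translation factors, at 81.2 ± 12.2. These 2 genes did not differ beyond their spread. Below them stood mRpS7 (63.9 ± 7.61), mRpL15 (58.9 ± 1.88) and mRpS17 (58.8 ± 10.96), which likewise overlapped. In L3 testes mRpL12 led, at 125.5 ± 5.62 CPM per kb, and its lowest pool (121.0) lay above the highest pool of any other member. It was followed by mRpS18A (95.9 ± 7.12), mRpS21 (94.7 ± 10.6), mRpS7 (83.6 ± 4.56) and mRpS10 (73.6 ± 5.72). At the low end, mRpS5 stood last in both stages, at 6.75 ± 0.361 CPM per kb in adult testes and 9.49 ± 0.903 in L3 testes, next to mRpL20 (8.21 ± 2.43 and 14.7 ± 0.612 CPM per kb) and mRpL37 (8.31 ± 1.29 and 14.9 ± 0.735 CPM per kb). The order of the genes was much the same in adult and L3 testes of the parental stock (Spearman's rho = 0.96 across 72 genes, which share their libraries and are not independent).

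Mitochondrial ribosomal protein transcripts made up a smaller part of the RNA in adult than in L3 testes of the parental stock. Of the 72 genes, 68 fell and 0 rose, where 38.5% of all 11286 genes tested fell and 36.1% rose. The median log2 change of the 72 was -0.73, against -0.05 over all genes tested. In 65 of the 72, all 4 adult pools lay below all 4 L3 pools, which held for 34.4% of all genes, and in 0 did they lie above, which held for 31.8%. Summed over the genes, the level was 1568 ± 84.0 CPM in adult testes and 2453 ± 19.1 CPM in L3 testes (SD, n = 4 each). That was 0.137% of all counts in adult testes and 0.279% in L3 testes.

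Both subunits, as given by the symbols, took part. In the large subunit 44 of 46 genes fell, with a median log2 change of -0.77, and in the small subunit 24 of 26 fell, with a median of -0.63. The 14 small-subunit genes with bacterial numbers had a median of -0.44, the 12 with higher numbers -0.77, and the large-subunit genes -0.76 and -0.77 (28 and 18 genes). The difference between these groups was not tested. All 3 genes of the L7/L12 stalk and its base (mRpL10, mRpL11 and mRpL12) fell, as did all 5 of the peptidyl transferase core, all 6 around the exit tunnel on the membrane side, and all 5 along the mRNA and tRNA path of the small subunit.

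The largest falls were near 2-fold. mRpL41, a large-subunit protein with no bacterial counterpart, had 8.69, 8.66, 10.9 and 8.98 CPM in adult parental testes, against 22.4, 18.6, 19.7 and 19.4 CPM in L3 testes. No adult pool reached the lowest L3 pool, and the log2 change was -1.10 (SE 0.104, edgeR adjusted p = 9.173e-07). mRpL38 had 15.9, 14.2, 15.4 and 16.1 CPM in adult testes and 28.9, 34.6, 30.0 and 33.8 CPM in L3 testes, a log2 change of -1.05 (SE 0.094, edgeR adjusted p = 5.639e-07). mRpS2, on the mRNA path of the small subunit, had 13.5, 12.8, 13.9 and 11.97 CPM in adult testes and 26.8, 29.5, 26.0 and 26.3 CPM in L3 testes. Its stages were again apart, with a log2 change of -1.03 (SE 0.0856, edgeR adjusted p = 2.976e-07). mRpL46 and mRpL21 both fell by 1.03 on the log2 scale (SE 0.107 and 0.0984; edgeR adjusted p = 2.151e-06 and 1.04e-06).

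A small set stood outside this fall. mRpS17, whose bacterial namesake binds the ribosomal RNA of the small subunit, had 50.7, 46.2, 35.5 and 35.2 CPM in adult parental testes and 38.9, 47.2, 43.6 and 43.5 CPM in L3 testes. The stages overlapped, and the log2 change was 0.003 (SE 0.115, edgeR adjusted p = 0.981). With library size alone in place of TMM, which moved the median of all genes by -0.41, it was -0.42. mRpS21 had 42.2, 48.2, 40.4 and 34.4 CPM in adult testes and 40.3, 44.9, 42.7 and 52.0 CPM in L3 testes (log2 change -0.08, SE 0.106, edgeR adjusted p = 0.520). Of its exon bases, 48.0% overlapped CG8870 on the other strand. mRpL51 had 32.1, 33.1, 30.9 and 25.4 CPM in adult testes and 34.2, 35.6, 29.7 and 35.6 CPM in L3 testes (log2 change -0.10, SE 0.0938, edgeR adjusted p = 0.338). mRpL55 had a log2 change of -0.32 (SE 0.165, edgeR adjusted p = 0.0986).

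**Figure D1:**
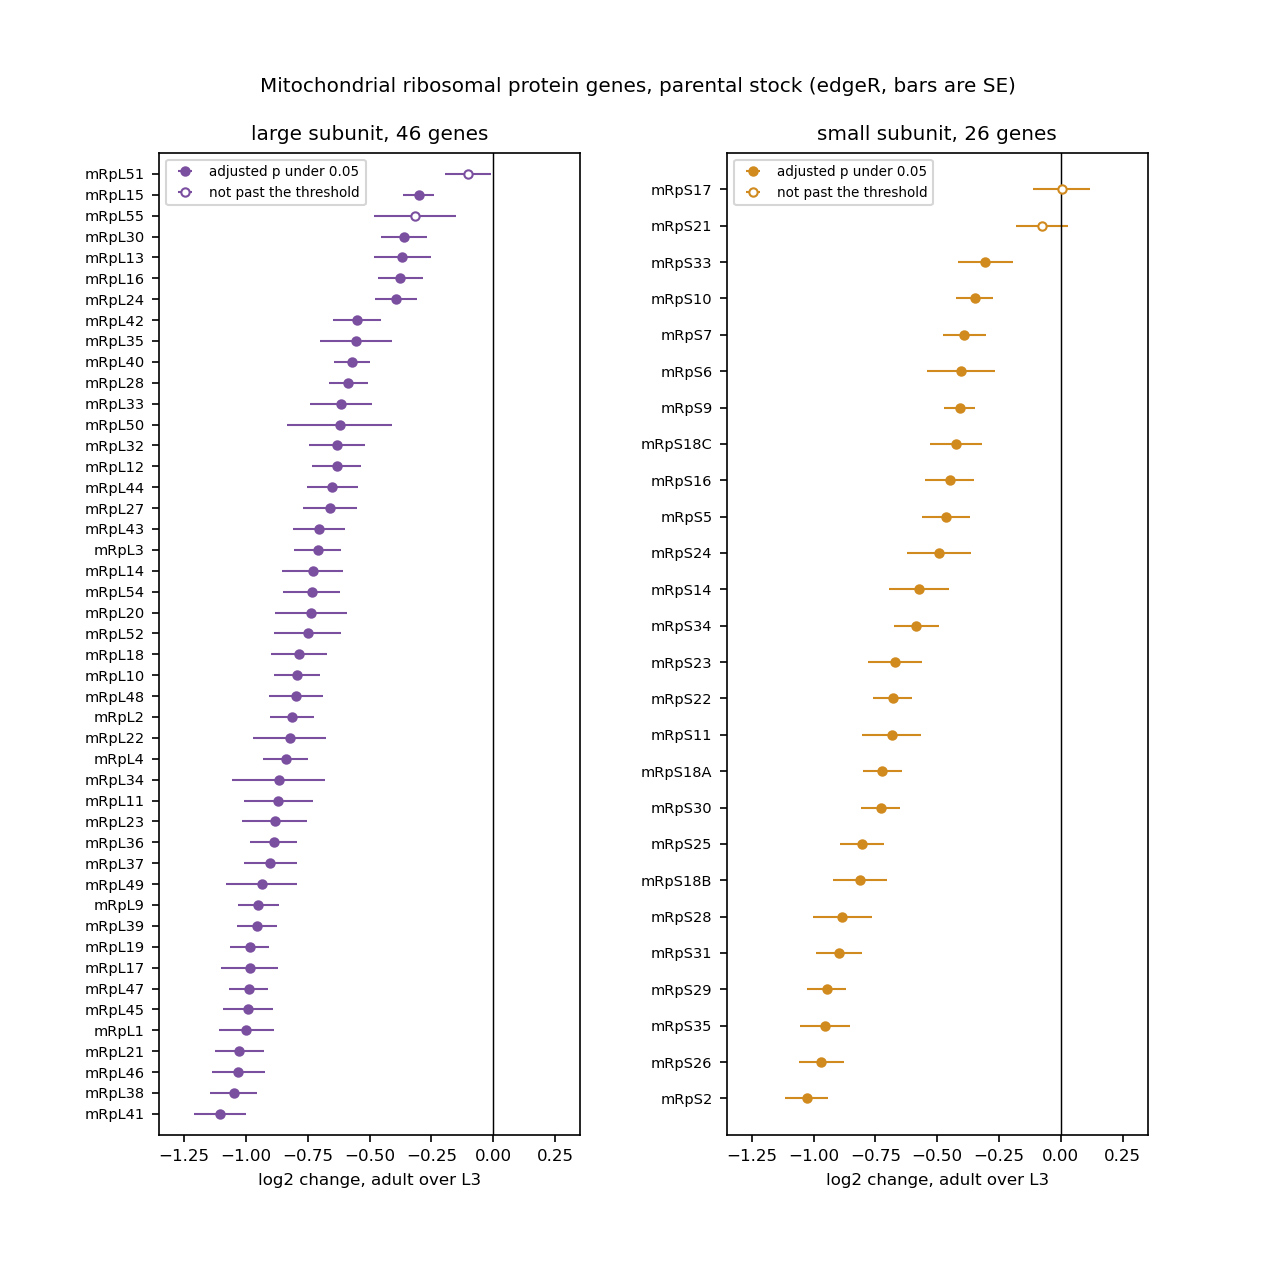
Log2 change between adult and L3 testes of the parental stock (horizontal axis, adult over L3) for each tested gene, large subunit left and small subunit right; points are edgeR estimates, bars are standard errors and open points did not pass an adjusted p of 0.05. The 68 genes that fell lie left of 0, while mRpS17 sits at 0.003 and mRpS21 at -0.08.

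The same fall was seen in every line. With the line as the replicate (16 line sums), 68 genes fell and 1 rose over the 8 lines, where 40.2% of all genes tested fell and 39.9% rose, and the median log2 change was -0.79. Line by line, 68 of the 72 fell in BM1, 64 in BM5, 66 in BM6, 67 in BM24, 69 in BM46, 67 in BM4 and 66 in BM21, where 41% (BM1), 39.8% (BM5), 39.5% (BM6), 41.4% (BM24), 41.5% (BM46), 40.1% (BM4) and 38.5% (BM21) of all genes did. In all 8 lines 61 of the 72 fell, against 26.4% of the 10634 genes tested in all of them. mRpL30 was called in neither BM6 nor BM24, but fell in both without the libraries under 1000000 counts (-0.63 and -0.39). In BM24 mRpS33 then rose (0.37). The gene that rose over the 8 lines was mRpS17, by 0.11 on the log2 scale (SE 0.0376, edgeR adjusted p = 0.0180). Its change turned to -0.33 with library size alone. mRpS17, mRpS21 and mRpL51 fell in 0 of the 8 lines. The deepest changes over the lines were those of mRpL34 (log2 change -1.14, SE 0.0903, edgeR adjusted p = 2.862e-07), mRpL38 (-1.09, SE 0.0481, adjusted p = 2.604e-09) and mRpL1, of the stalk beside the tRNA exit site (-1.08, SE 0.0535, adjusted p = 6.364e-09). The summed level ranged from 1226 to 1711 CPM over the 29 adult libraries with at least 1000000 counts and from 1987 to 2475 CPM over the 32 L3 libraries, with no overlap.

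Other genes of mitochondrial translation and gene expression mostly fell in parental testes as well. The share of nuclear subunits of oxidative phosphorylation that fell was near the 38.5% of all genes. A smaller share of these subunits rose than of all genes, and their median log2 change was -0.18, against -0.05 over all genes. Both ribosomal proteins with other symbols fell: tko, the small-subunit protein S12, by 0.92 and bonsai, the S15 protein, by 0.72 on the log2 scale. Of 17 mitochondrial aminoacyl-tRNA synthetases and amidotransferase subunits, 14 fell and 2 rose (median log2 change -0.62), with ProRS-m at -1.11 and CysRS-m at 0.99. Of 11 genes of mitochondrial DNA and RNA maintenance, 9 fell and 0 rose (median -0.61), among them mTerf3 at -1.03. The 9 translation factors divided, with 6 that fell, such as the initiation factor mIF3 at -0.98, and 3 that rose, such as the elongation factor mEFTu2 at 0.92. Of 91 cytoplasmic ribosomal protein genes, 77 fell and 3 rose, with a median of -0.48. Nuclear subunits of oxidative phosphorylation fell in 27 and rose in 11 of 61 (median -0.18), and their paralogous copies fell in 6 and rose in 11 of 18 (median 0.36), with ND-B14.5AL at 1.25. Only 13 of 37 mitochondrially encoded genes passed the filter on low counts, and of these 1 fell and 0 rose. Somatic testis markers, summed over the 3 genes, had a median of 87.0 CPM in adult and 132.1 CPM in L3 parental testes, and germline markers, summed over the 7 genes, had 5786 CPM in adult and 2434 CPM in L3 testes. Markers of other cells differed between the stages with no overlap of the 4 parental libraries each: muscle genes summed to 88.7 CPM (80.03 to 139.6) in adult and 20.2 CPM (17.3 to 26.5) in L3 testes, hemocyte genes to 170.5 CPM (118.9 to 217.3) in adult and 82.5 CPM (78.3 to 92.6) in L3 testes, and fat body genes to 98.00 CPM (56.5 to 133.9) in adult and 210.4 CPM (184.3 to 318.4) in L3 testes. The part of these cells in the fall was not tested.

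Sterile lines tended to hold less of these transcripts than fertile lines, but few single genes passed the test. In adult testes, 61 of the 72 had a log2 change below 0 for the 5 sterile against the 3 fertile lines, with a median of -0.20, against 0.02 over all genes. In 25 genes, all 5 sterile lines lay below all 3 fertile lines, where 10% of all genes did so, and in 0 did all sterile lines lie above, where 7.51% did. None of the 72 passed the threshold in edgeR, where 1.28% of all 13596 genes fell and 1.48% rose, while 25 had an unadjusted p under 0.05 (22.3% of all genes). DESeq2 called 10 members lower and 0 higher, where it called 5.77% of all genes lower. The smallest p was that of mRpL19, with line levels of 17.9 ± 1.62 CPM in sterile lines (n = 5) and 24.3 ± 2.38 CPM in fertile lines (n = 3), a log2 change of -0.45 (SE 0.109, edgeR adjusted p = 0.0680). mRpL1 had 12.8 ± 1.11 CPM in sterile and 16.8 ± 0.295 CPM in fertile lines (log2 change -0.39, edgeR adjusted p = 0.0688), and mRpS11 13.8 ± 0.660 CPM in sterile and 17.5 ± 1.17 CPM in fertile lines (log2 change -0.35, edgeR adjusted p = 0.0725). In all 3 genes the lines of the classes did not overlap.

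In L3 testes the picture was alike, except that the sterile line BM24 did not lie below the fertile line BM21. Against the parental stock, the median log2 change was -0.034 in BM24 and -0.047 in BM21. Their summed levels were 2348 ± 68.60 CPM and 2324 ± 123.2 CPM (SD, n = 4 each). Between the classes, the median log2 change was -0.17, against -0.003 over all genes, and 65 of the 72 lay below 0. In 19 genes all sterile lines lay below all fertile lines (7.26% of all genes), while in 0 they lay above (7.66%). The test called 2 genes lower and 0 higher, where 2.27% of all 13132 genes fell and 3.26% rose, and 27 members had an unadjusted p under 0.05 (21.7% of all genes). DESeq2 called 9 members lower and 0 higher, where it called 4.87% of all genes lower. mRpL11, at the base of the stalk, had line levels of 19.1 ± 1.31 CPM in sterile lines and 24.5 ± 1.39 CPM in fertile lines (log2 change -0.37, SE 0.0886, edgeR adjusted p = 0.0416). mRpS23, a small-subunit protein with no bacterial counterpart, had 39.4 ± 1.599 CPM in sterile and 48.0 ± 2.46 CPM in fertile lines (log2 change -0.29, SE 0.0704, edgeR adjusted p = 0.0433). Neither call held without BM1, BM5, BM6, BM46, BM4, BM21 or the parental stock, or with plate row as a covariate (0 genes each), and 5 genes were called without BM24. Fat body markers moved with the class: the summed level of the 8 genes had a median of 1009 CPM (range 206.2 to 2157) in sterile and 184.3 CPM (94.8 to 604.4) in fertile and parental L3 libraries. In adult libraries it was 165.4 CPM (132.3 to 1137) in sterile and 87.3 CPM (56.5 to 133.9) in fertile and parental libraries, and 8 muscle genes summed to medians of 187.5 CPM in sterile and 97.3 CPM in fertile and parental libraries. Muscle genes had 20.9 CPM in sterile and 15.3 CPM in fertile and parental L3 libraries, and 7 hemocyte genes had 149.9 CPM in sterile and 109.2 CPM in fertile and parental L3 libraries and 182.7 CPM in sterile and 129.1 CPM in fertile and parental adult libraries. Accessory gland genes, 6 in number, had similar medians in adult sterile (46.9 CPM) and fertile or parental libraries (44.3 CPM) but reached 7159 CPM in a sterile and 1120 CPM in a fertile library. Without the 8 adult libraries high in them (2 each of BM1, BM6, BM4 and BM21), edgeR again called 0 members between the classes, and over the 8 lines 69 members fell and 1 rose between the stages. All genes of these lists were detected, and the part of the other marker lists in the difference was not tested. The stage change did not differ detectably between the classes: edgeR's interaction test called 0 members and 0 of all genes, with 7 members at an unadjusted p under 0.05 (10.8% of all genes). DESeq2 called 190 of all genes (1.36%) and 0 members. The smallest p among members were those of mRpL35 (difference 0.26, SE 0.087, adjusted p = 0.387), mRpS6 (-0.31, SE 0.110, adjusted p = 0.388) and mRpL24 (-0.31, SE 0.109, adjusted p = 0.388).

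**Figure D2:**
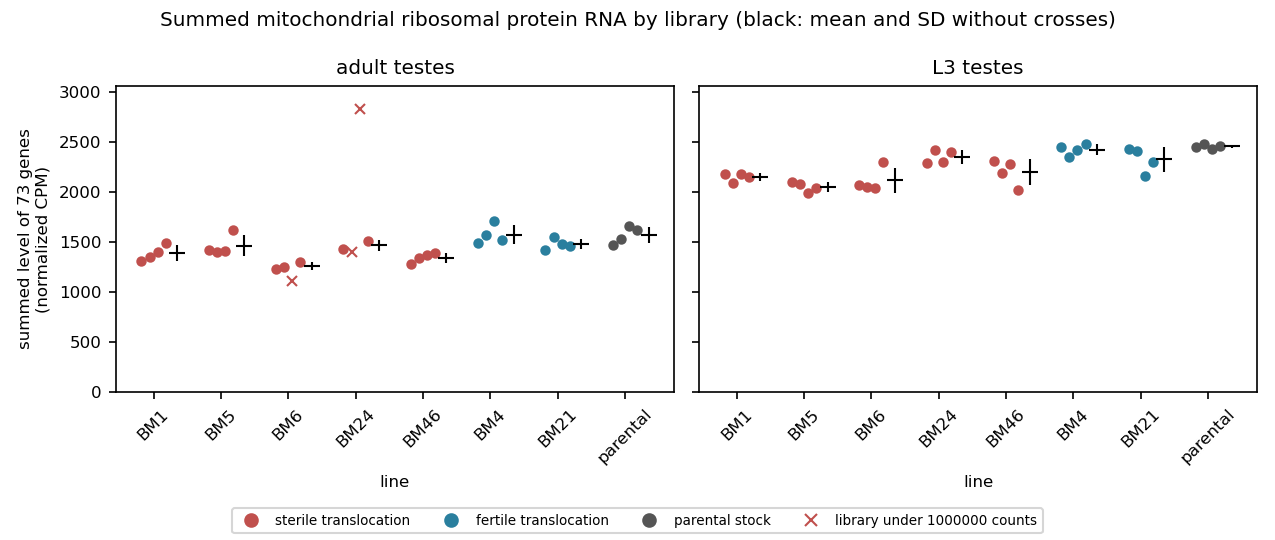
Summed normalized CPM of the 73 genes (vertical axis) in each library, by line, in adult testes (left) and L3 testes (right); points are libraries, crosses are libraries under 1000000 counts, and black marks give the mean and SD of the other libraries of a line. L3 libraries of the parental stock average 2453 CPM and those of BM5 2049 CPM, while adult libraries average 1568 CPM in the parental stock and 1259 CPM in BM6.

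The lines differed among themselves in how far they lay below the parental stock, with which all 7 comparisons of a stage share the control pools. In adult testes, 39 of the 72 fell in BM6, 29 in BM46, 27 in BM1, 13 in BM5 and 9 in BM24, whereas 2 fell in BM4 and 2 in BM21. All genes tested fell in 18.7% (BM6), 17.0% (BM46), 24.4% (BM1), 15.4% (BM5), 13.5% (BM24), 8.69% (BM4) and 8.61% (BM21) of cases. With all libraries kept, the members' share in BM5 and BM24 was thus close to the background. Without the libraries under 1000000 counts, 48 fell in BM6 (23.6% of all genes), 37 in BM46 (21.8%), 28 in BM1 (28.9%), 24 in BM5 (20.2%), 14 in BM24 (17.2%), 3 in BM4 (12.9%) and 10 in BM21 (13.4%). The members' share in BM5 then lay above that of all genes, and that in BM24 stayed close to it. These adult counts depended on the tool as long as the libraries under 1000000 counts were kept. With them, DESeq2 called lower 9 members in BM6 (8.28% of all genes), 5 in BM46 (8.13%), 8 in BM1 (12.1%), 1 in BM5 (7.1%), 0 in BM24 (5.09%), 0 in BM4 (3.78%) and 0 in BM21 (3.02%). Without them, in an alternative chosen after seeing the data, it called lower 42 in BM6 (21.2%), 32 in BM46 (20%), 25 in BM1 (27%), 17 in BM5 (18.2%), 11 in BM24 (16.6%), 2 in BM4 (12.9%) and 7 in BM21 (13.3%). In edgeR, 1 library also moved the adult calls in either direction by over 1.5 times in 5 lines: from 17 in BM5 to 8 without parental replicate 3 and 10 without BM5 replicate 2, from 30 in BM46 to 19 without parental replicate 3, from 11 in BM24 to 7 without its replicate 1, from 6 in BM21 to 3 without parental replicate 3 or its own replicate 4 and 11 without parental replicate 1, and from 4 in BM4 to 1 without parental replicate 3 or 4 or its own replicate 1 and 2 without its own replicate 2 or 3. The order of the lines is therefore a description. Members that rose were few, at 1 in BM6, 1 in BM46, 4 in BM1, 4 in BM5, 2 in BM24, 2 in BM4 and 4 in BM21, where 19.8% (BM6), 17% (BM46), 26.8% (BM1), 15.6% (BM5), 15% (BM24), 9.12% (BM4) and 11% (BM21) of all genes rose. In L3 testes 45 fell in BM5, 39 in BM6, 30 in BM46, 21 in BM1 and 9 in BM24, and 1 in BM4 and 6 in BM21. Here the share of all genes that fell was 21.9% (BM5), 21.7% (BM6), 21.8% (BM46), 21% (BM1), 19.7% (BM24), 17.5% (BM4) and 15.7% (BM21). Members that rose numbered 1 in BM5 (22.1% of all genes), 1 in BM6 (23.1%), 3 in BM46 (23.7%), 2 in BM1 (22.5%), 1 in BM24 (23.2%), 9 in BM4 (20.1%) and 3 in BM21 (19.2%). The 10 L3 calls in either direction in BM24 were 6 without parental replicate 2, and the 10 in BM4 were 6 without parental replicate 3 or its own replicate 1 or 4. Members that fell in all 5 sterile lines numbered 3 in adult testes (4.97% of all genes), namely mRpL40, mRpS9 and mRpS11, and 6 in L3 testes (7.29% of all genes), namely mRpL11, mRpL39, mRpL40, mRpL41, mRpS2 and mRpS11. Both shares were near those of all genes, and the names were picked after their values were seen. Of the 3 in adult testes, mRpL40 also fell in the fertile line BM4 (-0.28; without the libraries under 1000000 counts also in BM21, -0.26) and mRpS9 in BM21 (-0.35), and of the 6 in L3 testes, mRpL41 (-0.25) and mRpS2 (-0.23) also fell in BM21.

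**Figure D3:**
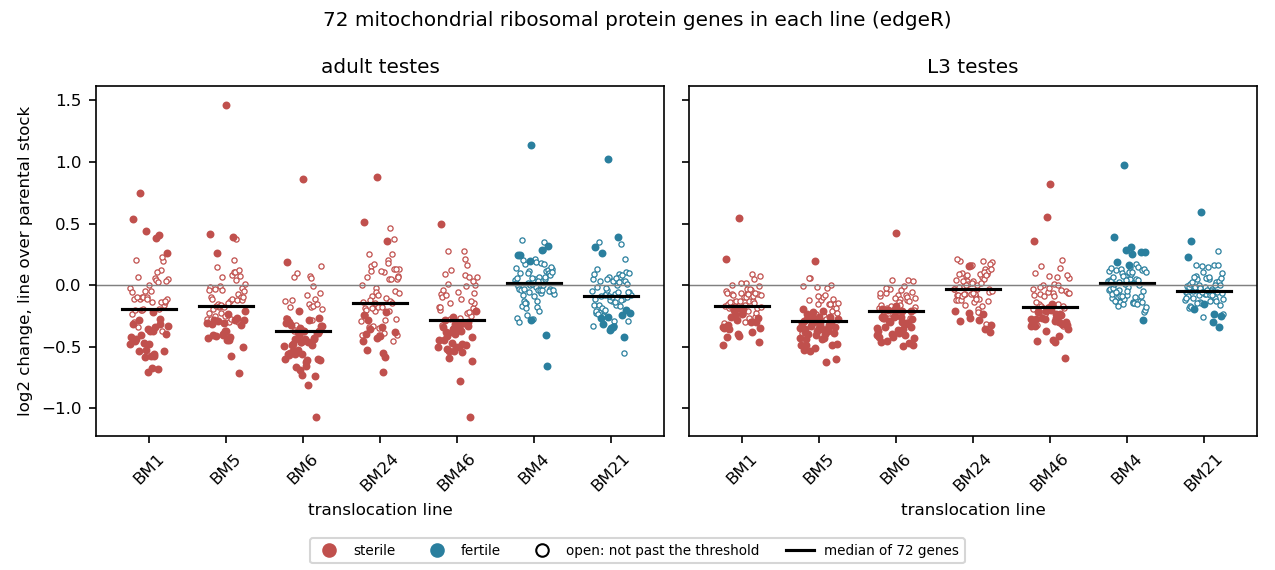
Log2 change of each tested gene between a translocation line and the parental stock (vertical axis) in adult testes (left, without the libraries under 1000000 counts) and L3 testes (right); points are genes, filled where the edgeR adjusted p was under 0.05, and black bars are medians. The medians are lowest in BM6 adult testes (-0.37) and BM5 L3 testes (-0.29) and near 0 in BM4 (0.02 in both stages), and single points far above belong to mRpL46 and mRpS33.

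The SD of the members' log2 line levels had a median of 0.176 in adult and 0.147 in L3 testes, against 0.239 and 0.172 for genes in the same range of mean level. mRpL46 and mRpS33 stood out by large rises, mRpL46 in 2 and mRpS33 in 4 of the 7 translocations at each stage. mRpL46 (FBgn0035272; arm 3L, bases 1777439 to 1778347 on the plus strand, coordinates as in Ensembl BDGP6) encodes a large-subunit protein with no bacterial counterpart, and its exons overlapped no other gene. It had 33.3, 36.6, 33.0 and 37.5 CPM in adult BM5 testes, against 12.3, 13.0, 14.3 and 10.5 CPM in adult parental testes. All BM5 pools lay above all parental pools, at a log2 change of 1.46 (SE 0.109, edgeR adjusted p = 9.07e-12). Adult BM6 was also higher, with 21.7, 27.1 and 20.1 CPM in its 3 deep pools (log2 change 0.85, SE 0.114, edgeR adjusted p = 7.703e-07), while in pools with at least 1000000 counts the other 5 translocations averaged 11.8 to 14.5 CPM.

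In L3 testes the pattern of mRpL46 was another. BM46 had 49.4, 42.8, 44.9 and 47.1 CPM, against 25.2, 28.5, 23.2 and 28.5 CPM in the parental stock (log2 change 0.83, SE 0.109, edgeR adjusted p = 2.557e-07). BM6 was higher as well, at 35.1 ± 6.73 CPM (log2 change 0.43, SE 0.109, edgeR adjusted p = 0.00195), with pools of 26.7 to 42.6 CPM that overlapped those of the parental stock, and BM5 was lower, at 20.6 ± 1.22 CPM (log2 change -0.35, SE 0.113, edgeR adjusted p = 0.0124). BM5 was thus the only line in which mRpL46 was higher in adult than in L3 testes (log2 change 0.77, SE 0.0798, edgeR adjusted p = 5.06e-07), and its stage change exceeded that of the parental stock by 1.82 (SE 0.152, edgeR adjusted p = 1.624e-13). In BM46 the stage change was -1.94, lower than that of the parental stock by 0.88 (difference -0.88, SE 0.154, edgeR adjusted p = 5.974e-05).

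mRpS33 (FBgn0038426; arm 3R, bases 16436045 to 16436597 on the minus strand), a small-subunit protein with no bacterial counterpart, was higher in both fertile translocations. Adult BM4 testes had 22.1, 22.9, 22.9 and 18.2 CPM and adult BM21 testes 20.3, 21.4, 18.4 and 19.5 CPM, against 9.35, 10.9, 10.1 and 8.60 CPM in adult parental testes. The log2 changes were 1.14 (SE 0.169, edgeR adjusted p = 7.281e-06) and 1.02 (SE 0.169, edgeR adjusted p = 4.411e-05). The sterile line BM24 was close to them, at 0.80 (SE 0.193, edgeR adjusted p = 0.00232), with 16.9 and 19.2 CPM in its 2 deep pools, and BM1 rose by 0.44 (edgeR adjusted p = 0.0304). In L3 testes mRpS33 rose in BM4 (23.9 ± 2.37 CPM, against 12.4 ± 1.43 CPM in the parental stock; log2 change 0.98, SE 0.121, edgeR adjusted p = 1.023e-07), in BM21 (0.59, adjusted p = 0.000283), in BM46 (0.55, adjusted p = 0.000414) and in BM1 (0.55, adjusted p = 0.000573).

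**Figure D4:**
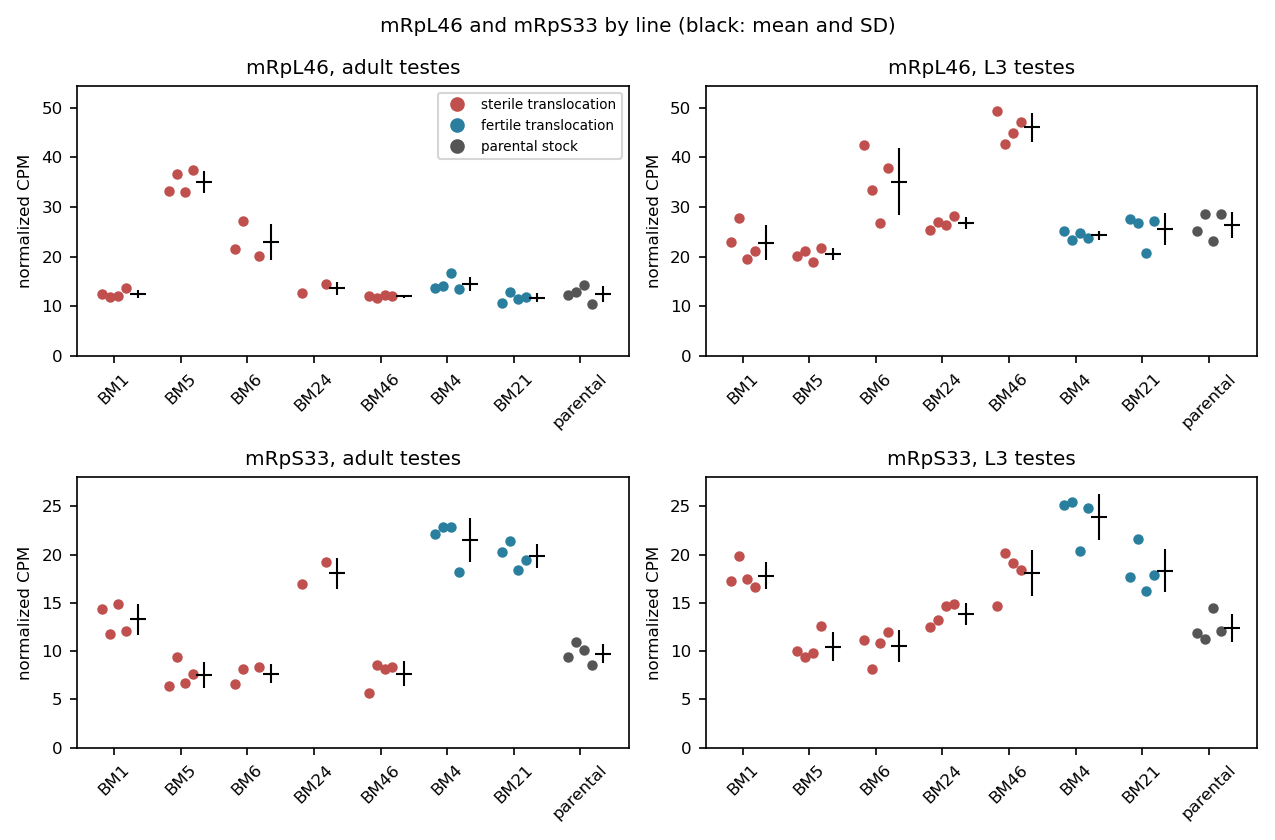
Normalized CPM (vertical axis) of mRpL46 (top) and mRpS33 (bottom) in each library with at least 1000000 counts, by line, in adult testes (left) and L3 testes (right); black marks give the mean and SD of a line. mRpL46 averages 35.1 CPM in adult BM5 and 46.0 CPM in L3 BM46, and mRpS33 averages 21.5 CPM in adult BM4 against 9.75 CPM in the parental stock.

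Other single departures were smaller. In adult BM1 testes mRpS21 rose, with 67.4, 58.3, 77.1 and 74.6 CPM against 42.2, 48.2, 40.4 and 34.4 CPM in the parental stock (log2 change 0.75, SE 0.196, edgeR adjusted p = 0.00232), and mRpS6 fell by 0.71 (SE 0.149, edgeR adjusted p = 0.000279). Without the libraries under 1000000 counts, mRpS6 also fell in adult BM6 (-0.73), BM46 (-0.50), BM5 (-0.375) and the fertile line BM21 (-0.37). BM24 (-0.40, edgeR adjusted p = 0.0565) and BM4 (-0.27, edgeR adjusted p = 0.139) lay below 0 but were not called. mRpL51 rose in 6 of the 7 translocations in adult testes, by 0.24 in BM4 to 0.54 in BM1, and had 0.20 in BM6 (adjusted p = 0.0594). mRpL34, the shortest member at 327 bases, fell in adult BM6 and BM46 (-1.07 in both, edgeR adjusted p = 0.00252 and 0.00137) and BM5 (-0.71, adjusted p = 0.0304), where the 4 parental pools held 21 to 92 counts of it. Without the libraries under 1000000 counts, mRpL34 also fell in the fertile line BM4 (-0.66, edgeR adjusted p = 0.0386). BM21 (-0.55), BM24 (-0.45) and BM1 (-0.37) then lay below 0 but were not called. mRpS24 fell in both fertile translocations, by 0.41 in BM4 and 0.42 in BM21 (edgeR adjusted p = 0.0488 and 0.0378), and 55.3% of its exon bases overlapped TBC1d7 on the other strand. This fall was not particular to fertile lines. Without the libraries under 1000000 counts, mRpS24 fell further in the sterile line BM6 (-0.74, edgeR adjusted p = 0.000293), while the other sterile lines were not called. mRpL14, at the subunit interface in bacteria, fell by 0.72 in adult BM24 testes (SE 0.183, edgeR adjusted p = 0.00332). It also fell in adult BM6 without the libraries under 1000000 counts (-0.62, edgeR adjusted p = 0.00237). The remaining translocations then lay below 0 but were not called. In L3 testes mRpS29 fell in BM46 by 0.59 (SE 0.0605, edgeR adjusted p = 1.576e-09) and in BM21 by 0.34 (SE 0.0603, edgeR adjusted p = 3.855e-05). It also fell in L3 testes of BM5 (-0.39), BM6 (-0.34) and BM1 (-0.30), while BM24 (-0.13) and BM4 (-0.136) lay below 0 but were not called. The largest falls in L3 lines other than BM46 and BM21 were those of mRpL21 in BM5 (-0.62, SE 0.121), mRpS14 in BM6 (-0.50, SE 0.156), mRpL47 in BM1 (-0.48, SE 0.0893), mRpL41 in BM24 (-0.38, SE 0.0959) and mRpS31 in BM4 (-0.28, SE 0.087). Of these genes, only mRpS14 fell in no other L3 line. mRpL21 also fell in BM6 (-0.357), and mRpL47 in BM5 (-0.432), BM6 (-0.405) and BM46 (-0.271). mRpL41 fell further in BM5 (-0.6), BM6 (-0.487) and BM1 (-0.463), and also fell in BM46 (-0.319) and BM21 (-0.253). mRpS31 also fell in BM5 (-0.335), BM46 (-0.301), BM6 (-0.273) and BM1 (-0.264). Relative to the parental stock, the stage change itself differed in 12 members in BM1 (22.3% of all genes), 7 in BM5 (12%), 4 in BM6 (11.5%), 6 in BM24 (16.2%), 4 in BM46 (7.61%), 0 in BM4 (9.75%) and 0 in BM21 (4.06%), a comparison added after the data were seen.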

How the data were processed

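RNA was sequenced from 64 testis libraries, as 50-base single reads per the labels' protocols. Gene counts were deposited by the authors as raw read counts per gene; bcl2fastq 1.8, cutadapt (version not given), HISAT2 2.1.0 and featureCounts 1.6.1 are named in the submitters' processing notes. The genome build and strand setting are not given in those notes, but coordinates of all 73 members equal those of Ensembl BDGP6. Totals per library ran from 20387 to 24650332, which sets the precision of each level. Counts were tested across all genes with edgeR 4.0.16 (limma 3.58.1, R 4.3.3), using TMM factors, filterByExpr and the quasi-likelihood F test, with Benjamini-Hochberg adjustment. A standard error is the log2 change divided by the square root of F. Line sums were the replicates for class, for stage over 8 lines and for the interaction of class and stage. Pools were the replicates elsewhere. DESeq2 1.42.0, other scalings, no filter and left-out libraries or lines were alternatives. Simulated data were run through the fits of parental stage, stage over 8 lines, class, interaction and BM5 against the parental stock. Differences of stage change between a line and the parental stock were not simulated. Named are the 5 highest and 5 lowest members per length, per comparison the largest called changes (the smallest p where none passed) among members averaging 1 log2 CPM or more, members at 0, and those that went against the majority. Members, lists and tests were chosen with earlier results of these data known. Same-numbered pools were not paired: 1 of 32 correlations between the stages of a line was over 0.1. Sites on the ribosome were assigned by hand from bacterial namesakes.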

Additional observations from a re-analysis of the deposited data

Results flagged for a closer look

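In 9 of 86 groups of libraries or lines, 1 value stood far from the rest, where chance gives about 1 in 20. The summed level was highest in 1 library each of adult BM24 (2831 CPM, replicate 3, under 1000000 counts), adult BM5 (1617 CPM, replicate 4) and L3 BM6 (2298 CPM, replicate 4). Single parental libraries were high for mRpL19 (26.13 CPM) and mRpL41 (10.86 CPM) in adult replicate 3 and for mRpS6 (27.63 CPM) in L3 replicate 1. Among sterile lines, adult BM6 was low for mRpS24 (15.81 CPM), and L3 BM24 was high for mRpL1 (33.25 CPM) and mRpS31 (33.75 CPM).

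The stage change of a line differed from that of the parental stock in 19 of 259 tests over named members (edgeR adjusted p under 0.05; line minus parental, log2). Named members were chosen in part for large changes in these lines, and of all genes 4.06% (BM21) to 22.3% (BM1) differed, so the count is not read as an excess. In BM1 the differences were -0.378 for mRpS30, -0.457 for mRpL12, -0.598 for mRpS6, 0.833 for mRpS21, 0.656 for mRpS14, -0.254 for mRpL15, 0.331 for mRpL51 and 0.477 for mRpL47. In BM5 they were 1.818 for mRpL46, 0.733 for mRpL21, 0.423 for mRpL51 and 0.664 for mRpS14. In BM6 the difference was -0.474 for mRpL24. In BM24 it was -0.515 for mRpL13, -0.619 for mRpL14 and 0.655 for mRpS33, and in BM46 -0.881 for mRpL46, -0.904 for mRpS33 and -0.444 for mRpL24.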

How the results depend on the processing

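Among single-gene values under alternatives, 733 kept direction and side of the threshold, 66 lost and 11 gained the call, and 9 turned round, all of them mRpS17 between stages. Its log2 change was -0.334 over 8 lines with library size alone and 0.117 in BM24 without libraries under 1000000 counts. In the parental stock it was -0.415 with library size alone, -0.029 with no filter, -0.028 with the replicate block and -0.104 to 0.093 with 1 library left out. Library size alone gave 0 risen members over 8 lines, as did no filter, and leaving out a line gave 0 to 1. The cause was not tested. Members lower in sterile L3 lines numbered 1 with library size alone, 0 with no filter, 9 in DESeq2, 0 with plate row and 0 to 5 without 1 line; in adult lines they numbered 2 with library size alone and 10 in DESeq2. Against the parental stock, DESeq2 called 10 members in adult BM1, 2 in BM5, 10 in BM6, 1 in BM24, 6 in BM46, 1 in BM4 and 1 in BM21, and without libraries under 1000000 counts 8 in BM4 and 11 in BM21, with the other 5 lines within 1.5 times of edgeR. Library size alone gave 26 in BM5 and 2 in BM4, and DESeq2 size factors or no filter 2 in BM4. Without libraries under 1000000 counts there were 28 in BM5, 17 in BM24, 9 in BM4 and 14 in BM21. With 1 library left out, adult calls ran from 8 to 22 in BM5, 7 to 14 in BM24, 19 to 33 in BM46, 1 to 3 in BM4 and 3 to 11 in BM21, and L3 calls from 6 to 11 in BM24 and 6 to 11 in BM4. With the replicate block 66 members fell between stages in the parental stock. Depth limits the 3 adult libraries under 1000000 counts most.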
